A study of Homo sapiens with 6 samples.

Results

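The 40 genes described here encode the proteins that take a cell across the G1/S boundary and copy its DNA: the E-type cyclins and E2F1, the origin licensing factors, the replicative helicase, the polymerases with their sliding clamp, and factors that supply nucleotides and rebuild chromatin behind the fork. They were chosen by name, with earlier results of these data known, so how many moved together describes this list and is no test. Where a gene had several probe sets of its own, the brightest on average was used. All 40 were among the 14428 genes tested. The RNA was that of A2058, a melanoma line of human origin long kept in culture, and 6 Affymetrix arrays were run. Cells overexpressing TET2WT, cells overexpressing TET2M (called Mut in another label) and Mock cells spent 7 days in DMEM whose glucose was either high, at 4.5 g/L, or normal, at 1 g/L, with splitting every few days. A single array stands for each line at each concentration. TET2 oxidises methylated cytosine in DNA. The promoter that drives each construct, the change that TET2M carries and whether a line grew from 1 clone are not stated by the labels.

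In G1 the origin recognition complex, CDC6 and CDT1 load the MCM2 to MCM7 ring on DNA as an inactive helicase. Cyclin E with CDK2 and the CDC7-DBF4 kinase then fire these origins by bringing in CDC45 and the GINS complex. DNA polymerases alpha, delta and epsilon then copy the strands, and replication factor C loads the PCNA clamp that holds delta and epsilon. Most of these genes are transcribed in bursts at G1/S by E2F factors once RB is phosphorylated, so their summed level in a culture follows how many cells are near S phase as well as how much each cell makes. In a bulk RNA sample a larger share of cells in S phase and more RNA per cell cannot be told apart.

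TET2 read 9.54 and 9.68 in TET2WT and 7.57 and 7.37 in TET2M, against 3.81 and 4.13 in Mock, at high and normal glucose in that order (log2 probe set value, as all levels below). Of 10 melanocyte lineage markers 6 were above the low-value level of 2.64, with SOX10 between 9.38 and 9.65 and MITF between 6.30 and 6.96, whereas the pigment genes MLANA, TYR, TYRP1 and DCT were not. Of 10 markers of undifferentiated melanoma 9 were above it, with AXL between 9.44 and 9.83. Of 10 markers of other cells 5 were above it, with the keratin gene KRT14 highest on any array at 6.86. Differences are log2 differences, ± is limma's standard error, and a gene passed when its limma p, adjusted by Benjamini-Hochberg over all 14428 genes, was under 0.05. With 1 array for each line and concentration, the error came from how differences varied over the 3 lines or the 2 concentrations. limma drew each gene's spread towards a value estimated from all genes tested, which had more weight than the gene's own spread. The spread may be technical, because nothing says that cultures were repeated, and, moderated in this way, it is all that these p-values measure.

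The promoter windows of these genes were searched for core words of the E2F binding site. RefSeq windows (GRCh38.p14, 250 bases before to 50 after the gene start) were at hand for 35 of the 40 genes. Of these 26, or 74.3%, held the word TTCCCGC, the word TTCGCGC, the word TTGGCGC or the word TTGCCGC on either strand, compared with 19.2% of the 11514 windows of genes tested and 13.1% of all 27305 windows. Of the 43 words found, 32 began between 60 bases before and 30 bases after the start, in 24 genes. In 4 genes such words overlapped each other, as in ORC1, and in 5 genes one overlapped a CCAAT word. CCAAT itself, on either strand, was in 54.3% of the members' windows, in 36.4% of those of genes tested and in 68.0% of 25 windows of G2/M genes. E2F core words were in 28.0% of those G2/M windows. The CHR word, TTTGAA or its variant TTCGAA, which late cell cycle genes use, were in 8.6% of the members' windows, in 11.4% of those of genes tested and in 68.0% of 25 windows of G2/M genes. The windows of DBF4 and SLBP were among the 9 without an E2F core word, which says only that these letters are not in these windows.

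The stretches below run from 120 bases before to 30 bases after the start and are shown for the 6 genes with the largest glucose differences among those whose window could be shown, and for the 2 that passed between TET2WT and Mock. Capitals mark E2F core words on either strand.
CDC6 (chr17:40287759-40287908, plus strand): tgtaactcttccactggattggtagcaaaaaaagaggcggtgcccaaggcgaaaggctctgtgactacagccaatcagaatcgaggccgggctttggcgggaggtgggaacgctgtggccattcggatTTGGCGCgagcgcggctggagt
CHAF1B (chr21:36385272-36385421, plus strand): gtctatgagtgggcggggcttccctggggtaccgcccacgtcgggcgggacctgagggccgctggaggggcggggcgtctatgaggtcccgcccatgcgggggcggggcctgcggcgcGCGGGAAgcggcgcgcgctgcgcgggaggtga
CDC7 (chr1:91500731-91500880, plus strand): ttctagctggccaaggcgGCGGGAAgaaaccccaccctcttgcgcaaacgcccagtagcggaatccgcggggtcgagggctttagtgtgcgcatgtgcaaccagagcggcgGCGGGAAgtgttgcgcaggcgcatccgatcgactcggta
SLBP (chr4:1712290-1712439, minus strand): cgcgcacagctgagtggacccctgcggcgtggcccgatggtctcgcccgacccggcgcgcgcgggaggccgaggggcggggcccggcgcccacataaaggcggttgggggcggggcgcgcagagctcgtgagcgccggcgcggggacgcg
DBF4 (chr7:87876373-87876522, plus strand): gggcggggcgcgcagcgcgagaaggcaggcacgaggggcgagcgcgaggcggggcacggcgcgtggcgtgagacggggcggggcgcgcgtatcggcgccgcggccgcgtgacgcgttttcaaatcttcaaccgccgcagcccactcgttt
ORC1 (chr1:52404394-52404543, minus strand): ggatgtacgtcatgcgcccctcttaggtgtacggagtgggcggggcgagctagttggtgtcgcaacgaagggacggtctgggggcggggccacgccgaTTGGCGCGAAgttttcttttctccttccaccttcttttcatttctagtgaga
RFC3 (chr13:33818029-33818178, plus strand): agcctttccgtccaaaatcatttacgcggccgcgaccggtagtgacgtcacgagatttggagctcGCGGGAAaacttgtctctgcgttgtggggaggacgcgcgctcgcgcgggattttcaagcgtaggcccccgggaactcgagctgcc
RFC5 (chr12:118016583-118016732, plus strand): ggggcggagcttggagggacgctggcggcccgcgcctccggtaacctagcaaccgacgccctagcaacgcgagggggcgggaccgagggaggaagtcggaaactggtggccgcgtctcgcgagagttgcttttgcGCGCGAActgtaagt

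**Figure D1:**
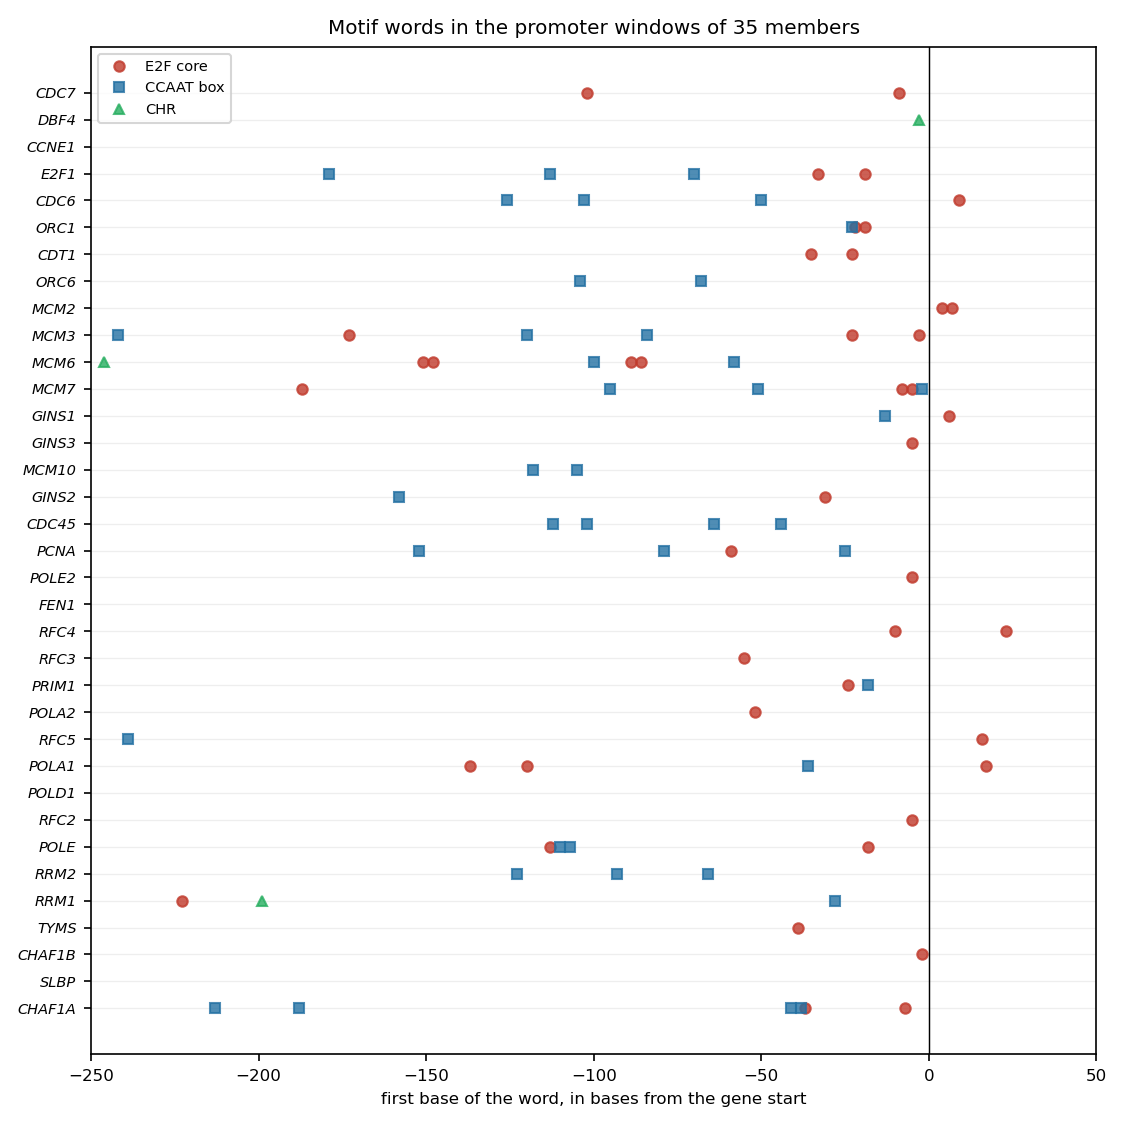
Position of the first base of each E2F core, CCAAT and CHR word (x axis, bases from the gene start) in the promoter windows of the 35 members that had one (rows, ordered by role). Most E2F core words lie close to the start, 32 of 43 between 60 bases before and 30 after it, and CHR words appear in 3 genes.

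The first comparison asked how these genes differed between high and normal glucose, as the mean over the 3 lines. All 40 had a mean difference above 0 in the fit reported, between 0.01 for POLE and 0.68 for CCNE2, with a median of 0.187, and 39 had one after quantile normalization or cyclic loess, where POLE lay below 0. Without the TET2WT arrays 36 were above 0, the others being E2F1, RFC2, POLA1 and POLE. Over all genes tested the median was -0.02, and 43.4% lay above 0. Because the list was chosen with earlier results of these data known, the count of members above 0 describes it and is no test. Of the 40 genes 0 passed in limma, as did 0% of all genes in that direction and 0.00693% in either, and the smallest adjusted p of a member was 0.0783. Their unadjusted limma p was under 0.05 for 18 members, all higher, compared with 7.18% of all genes higher and 8.19% lower. In 29 of the 40 the high-glucose array exceeded the normal-glucose array in all 3 lines (16.7% of all genes), and in 16 the 3 high-glucose arrays lay above all 3 normal-glucose arrays (6.04%). In those 16 the lowest high-glucose array stood above the highest normal-glucose one by 0.01 for FEN1, MCM6 and RRM2 up to 0.33 for CCNE2. Within a line 39 members were above 0 in TET2WT, 33 in TET2M and 33 in Mock, with medians of 0.265, 0.165 and 0.15 and ranges from -0.09 to 0.81, from -0.16 to 0.67 and from -0.14 to 0.59 in the same order. Over all genes 49.4% were above 0 in TET2WT, 44.3% in TET2M and 43.3% in Mock. The calls depended on how the variance was moderated. With an intensity trend in limma's variance 11 members passed, all higher, where 2.18% of all genes did: CCNE2, CDC6, CDC7, DBF4, MCM5, MCM10, PCNA, GINS1, FEN1, RRM2 and SLBP. As a sign of RNA quality, the 3′ probe set of the ACTB control exceeded the 5′ one by 2.06 in TET2WT, 1.93 in TET2M and 2.02 in Mock at high glucose, against 1.90 in TET2WT, 1.65 in TET2M and 1.94 in Mock at normal glucose. For GAPDH this excess was between 0.28 and 0.35 at high glucose and between 0.25 and 0.32 at normal glucose. The 6 melanocyte lineage markers above the low-value level all had mean glucose differences below 0, between -0.23 and -0.03. Within a line 2 of the 6 were above 0 in TET2WT, 1 in TET2M and 4 in Mock. Their summed level lay between 10.16 and 10.21 at high glucose and between 10.24 and 10.38 at normal glucose (log2 of the sum). Of the 5 markers of other cells 4 had a mean difference above 0 and 1 had one below, and their summed level lay between 6.12 and 7.25 at high glucose and between 5.81 and 6.97 at normal glucose. The part of RNA quality or of these markers in the members' differences was not tested.

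**Figure D2:**
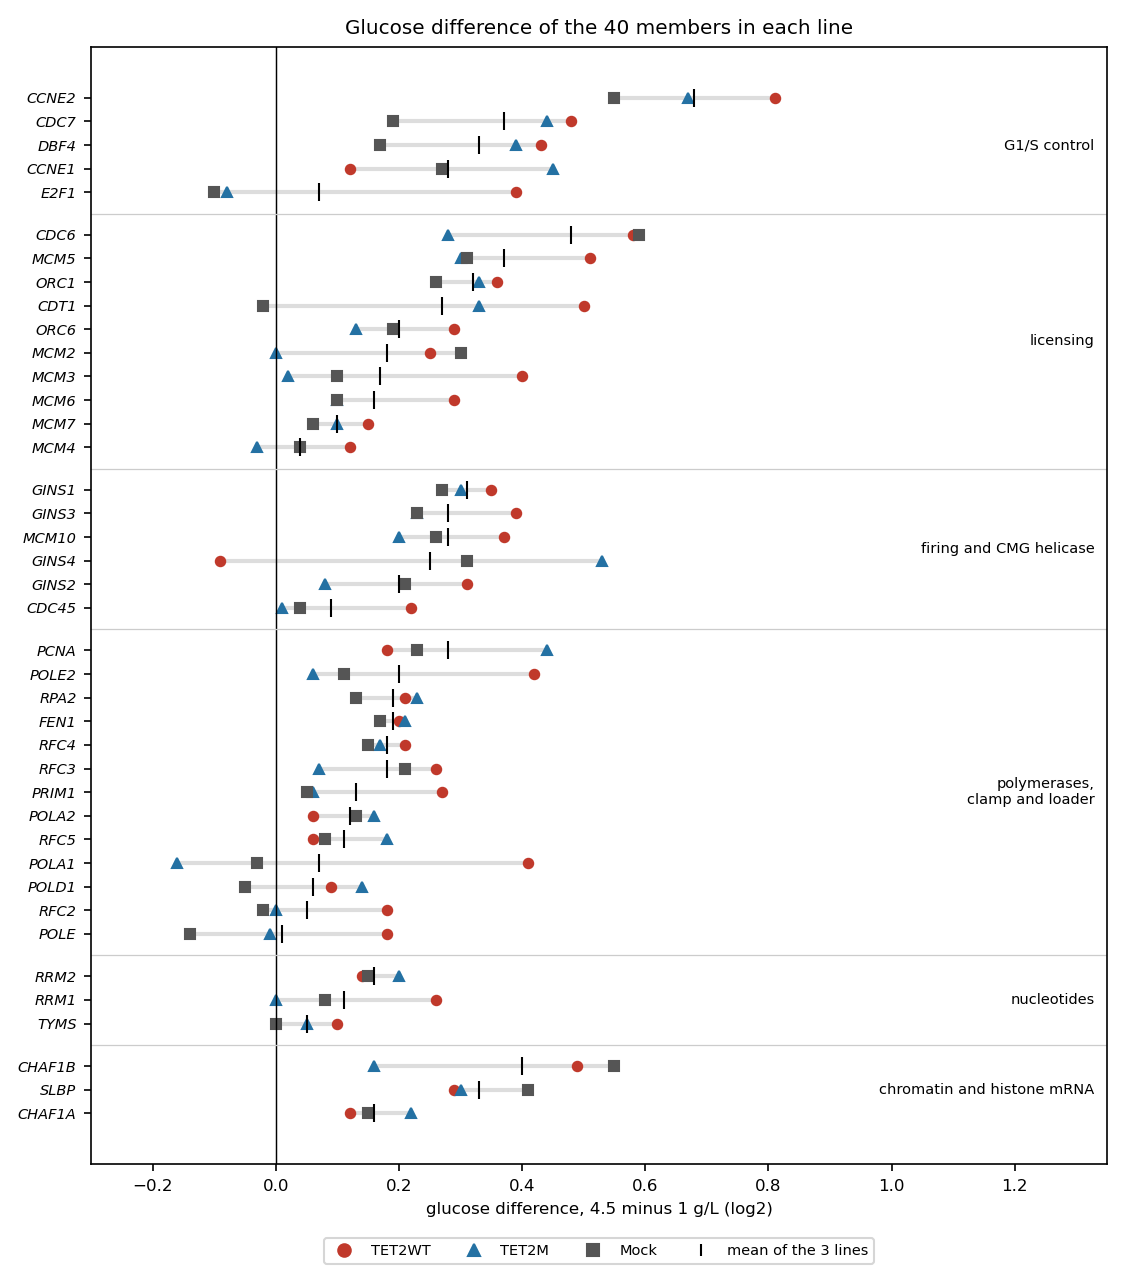
Glucose difference (x axis, 4.5 minus 1 g/L, log2) of the 40 genes in TET2WT (circles), TET2M (triangles) and Mock (squares), 1 pair of arrays each, with the mean of the 3 lines as a bar, grouped by role. All 40 means lie right of 0, from 0.01 for POLE, which lay below 0 after either rescaling, to 0.68 for CCNE2, while 1 gene in TET2WT, 4 in TET2M and 6 in Mock lie left of it.

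The 5 genes of G1/S control had a median glucose difference of 0.33. CCNE2, which encodes cyclin E2, an activator of CDK2, read 7.89 in TET2WT, 7.69 in TET2M and 7.91 in Mock at high glucose, against 7.08 in TET2WT, 7.02 in TET2M and 7.36 in Mock at normal glucose. The groups did not overlap, and the lowest high-glucose array stood 0.33 above the highest normal-glucose array. The difference was 0.68 ± 0.082, or 1.6-fold, with an adjusted p of 0.0783 in limma, and its other probe set above the low-value level gave 0.53. The related cyclin gene CCNE1 read 6.41 in TET2WT, 6.36 in TET2M and 6.40 in Mock at high glucose, against 6.29 in TET2WT, 5.91 in TET2M and 6.13 in Mock at normal glucose, a difference of 0.28 ± 0.089. Its groups did not overlap either, but the gap was 0.07. CDC7, the kinase that phosphorylates the MCM ring at firing, read 6.65 in TET2WT, 6.68 in TET2M and 6.78 in Mock at high glucose, against 6.17 in TET2WT, 6.24 in TET2M and 6.59 in Mock at normal glucose (0.37 ± 0.087). Its activating subunit DBF4 read 8.69 in TET2WT, 8.82 in TET2M and 9.04 in Mock at high glucose, against 8.26 in TET2WT, 8.43 in TET2M and 8.87 in Mock at normal glucose (0.33 ± 0.084). The DBF4 groups overlapped, because Mock at normal glucose exceeded TET2WT and TET2M at high glucose, although each line had its high-glucose array above its normal one. E2F1, the transcription factor that activates many of the other genes, differed by 0.07 ± 0.12, with 0.39 in TET2WT, -0.08 in TET2M and -0.10 in Mock. Its other probe set, which was dimmer, gave -0.01 in TET2WT, -0.06 in TET2M and -0.06 in Mock.

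**Figure D3:**
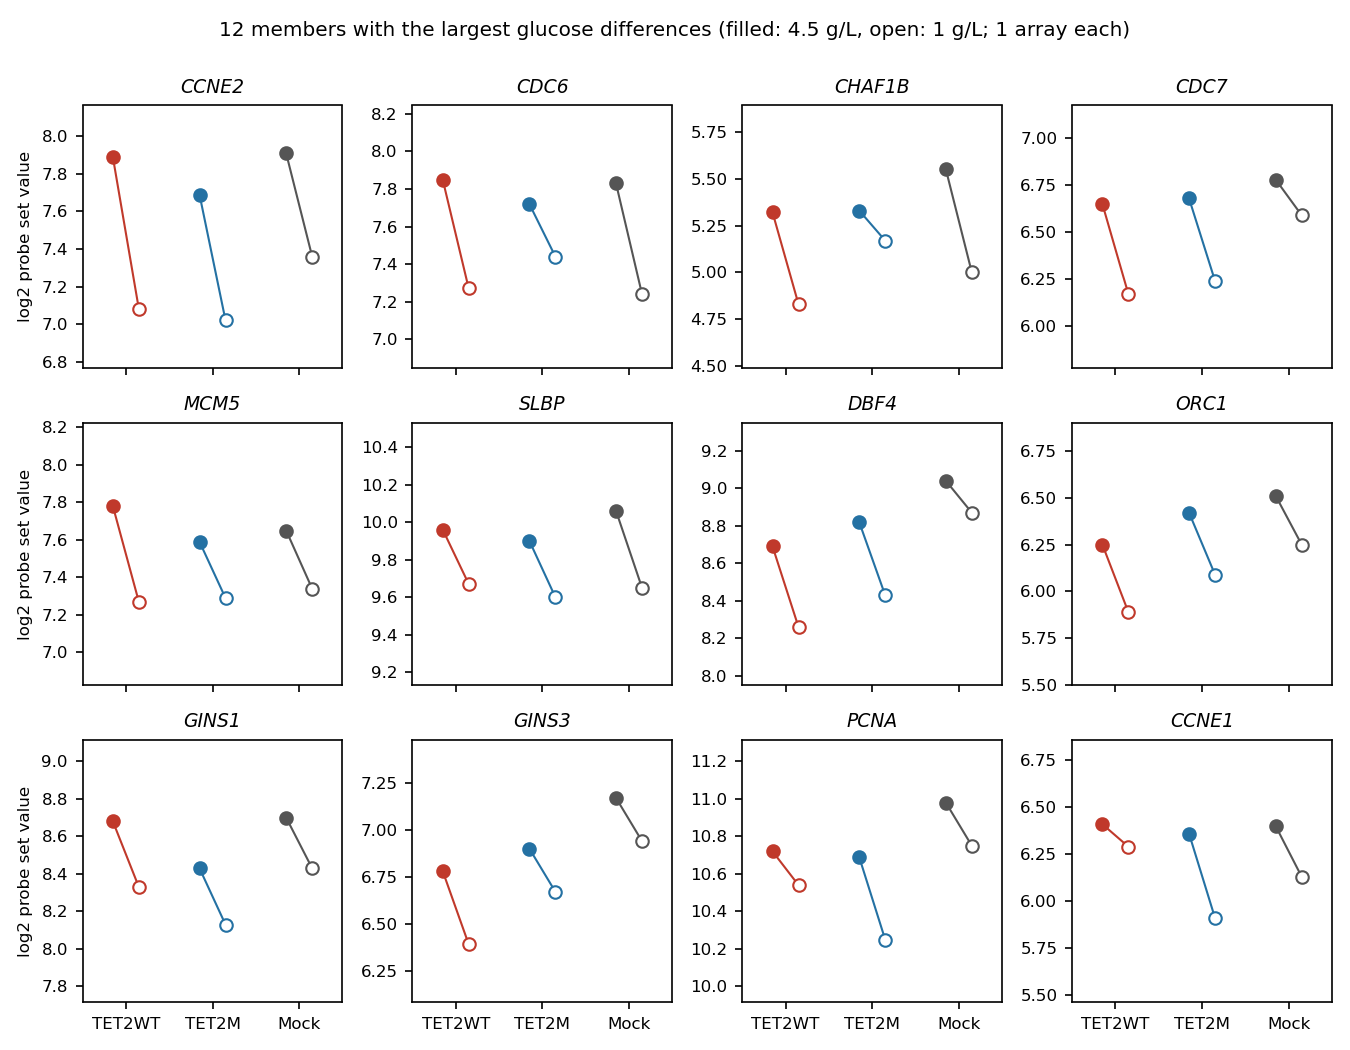
Log2 probe set value (y axis, each panel spanning 1.4 log2 units) of the 12 genes with the largest glucose differences on the 6 arrays, by line, with 4.5 g/L as filled and 1 g/L as open points. In all 12 genes and all 3 lines the filled point is above the open one, by 0.12 for CCNE1 in TET2WT up to 0.81 for CCNE2 in TET2WT.

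The 10 licensing genes had a median glucose difference of 0.193. CDC6, which acts with the origin recognition complex in loading the MCM ring, read 7.85 in TET2WT, 7.72 in TET2M and 7.83 in Mock at high glucose, against 7.27 in TET2WT, 7.44 in TET2M and 7.24 in Mock at normal glucose. The groups were 0.28 apart, the difference was 0.48 ± 0.091 (adjusted p = 0.146, limma), and the second CDC6 probe set gave 0.41. MCM5, a subunit of the helicase ring, read 7.78 in TET2WT, 7.59 in TET2M and 7.65 in Mock at high glucose, against 7.27 in TET2WT, 7.29 in TET2M and 7.34 in Mock at normal glucose (0.37 ± 0.080). Again the groups did not overlap, and another MCM5 probe set gave 0.36. The other subunits of the ring were less far apart, with 0.18 ± 0.088 for MCM2, 0.17 ± 0.097 for MCM3, 0.16 ± 0.079 for MCM6, 0.10 ± 0.071 for MCM7 and 0.04 ± 0.074 for MCM4. MCM4 had 5 probe sets above the low-value level, which gave 0.04, 0.16, 0.29, 0.27 and -0.04 in order of decreasing mean. ORC1, the largest subunit of the origin recognition complex, read 6.25 in TET2WT, 6.42 in TET2M and 6.51 in Mock at high glucose, against 5.89 in TET2WT, 6.09 in TET2M and 6.25 in Mock at normal glucose (0.32 ± 0.072). Its 3 lines moved by like amounts, 0.36, 0.33 and 0.26, while the levels of the lines overlapped. ORC6 differed by 0.20 ± 0.075. CDT1, the partner of CDC6 in loading, differed by 0.50 in TET2WT, 0.33 in TET2M and -0.02 in Mock (mean 0.27 ± 0.11), and its other probe set by -0.16 in TET2WT, 0.21 in TET2M and 0.18 in Mock.

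The 6 genes of origin firing had a median glucose difference of 0.263. GINS1 read 8.68 in TET2WT, 8.43 in TET2M and 8.70 in Mock at high glucose, against 8.33 in TET2WT, 8.13 in TET2M and 8.43 in Mock at normal glucose (0.31 ± 0.071). GINS3 read 6.78 in TET2WT, 6.90 in TET2M and 7.17 in Mock at high glucose, against 6.39 in TET2WT, 6.67 in TET2M and 6.94 in Mock at normal glucose (0.28 ± 0.076). These subunits of the 4-protein GINS complex, which activates the helicase, were higher at high glucose in every line, by 0.23 to 0.39. GINS2 differed by 0.20 ± 0.080. GINS4, whose arrays lay between 3.71 and 4.32, was the 1 member below 0 in TET2WT, at -0.09, with 0.53 in TET2M and 0.31 in Mock, and its mean difference of 0.25 ± 0.13 was 0.059 with the mean of its probe sets. MCM10, which binds the active helicase, differed by 0.28 ± 0.075 and was above 0 in all 3 lines. CDC45, the third part of the active helicase, differed by 0.09 ± 0.079.

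Among the 13 genes of the polymerases, the clamp and its loader the median glucose difference was 0.127. PCNA, the sliding clamp, read 10.72 in TET2WT, 10.69 in TET2M and 10.98 in Mock at high glucose, against 10.54 in TET2WT, 10.25 in TET2M and 10.75 in Mock at normal glucose (0.28 ± 0.084). The groups overlapped through Mock at normal glucose. The flap endonuclease gene FEN1 differed by 0.20 in TET2WT, 0.21 in TET2M and 0.17 in Mock (0.19 ± 0.070). Its other probe set was less even, with 0.42 in TET2WT, 0.16 in TET2M and 0.34 in Mock. POLE2, an accessory subunit of polymerase epsilon, differed by 0.42 in TET2WT, 0.06 in TET2M and 0.11 in Mock, and the catalytic subunit gene POLE by 0.18, -0.01 and -0.14 in the same order. The loader subunits RFC2, RFC3, RFC4 and RFC5 differed by 0.05 to 0.18, the single-strand binding subunit RPA2 by 0.19 ± 0.072, and the primase and polymerase alpha genes PRIM1, POLA1 and POLA2 by 0.07 to 0.13. Other probe sets above the low-value level gave 0.2 for RFC2, 0.24 and 0.15 for RFC3, 0.01 and -0.02 for RFC5, and 0.24 and -0.13 for POLA2. POLD1, the catalytic subunit of polymerase delta, differed by 0.06 ± 0.077. Of the 3 nucleotide genes, RRM2, the S-phase subunit of ribonucleotide reductase, differed by 0.16 ± 0.070, with 0.40 for its other probe set. RRM1 differed by 0.11 ± 0.083, with -0.01 for its other probe set. The thymidylate synthase gene TYMS differed by 0.05 ± 0.072, with 0.01 and 0.15 for its other probe sets.

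The 3 genes of chromatin and histone mRNA had a median of 0.333. In each the high-glucose arrays lay above all normal-glucose arrays, as in 6.04% of all genes. CHAF1B, a subunit of the assembly factor that deposits histones on new DNA, read 5.32 in TET2WT, 5.33 in TET2M and 5.55 in Mock at high glucose, against 4.83 in TET2WT, 5.17 in TET2M and 5.0 in Mock at normal glucose (0.40 ± 0.099). Its partner subunit gene CHAF1A differed by 0.16 ± 0.072. The other CHAF1A probe sets above the low-value level gave 0.1 and -0.03, and in these the groups overlapped. SLBP, which binds the stem-loop of replication-dependent histone mRNAs, read 9.96 in TET2WT, 9.90 in TET2M and 10.06 in Mock at high glucose, against 9.67 in TET2WT, 9.60 in TET2M and 9.65 in Mock at normal glucose (0.33 ± 0.073). The adjusted limma p of the 12 genes with the largest glucose differences lay between 0.0783 for CCNE2 and 0.251 for CCNE1. Across the 31 other probe sets of the members that were above the low-value level, in 21 genes, 24 gave a glucose difference above 0 and 7 one below 0, with a median of 0.15.

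Other genes of the same processes were set beside the members as the mean over the 3 lines. Of 35 further replication genes 25 were above 0 and 9 below, with a median of 0.0667, and 0 passed in limma, where 10 had an unadjusted p under 0.05 on the higher side. GMNN, the inhibitor of CDT1, differed by 0.42 ± 0.071, and the ubiquitin ligase receptor gene DTL by 0.36 ± 0.085. On the other side POLD4, the smallest subunit of polymerase delta, differed by -0.36 ± 0.082. Of 28 measured G1/S regulators 22 were above 0, with a median of 0.117, and 0 passed. The repressor E2F genes E2F8 and E2F7 stood highest, at 0.54 ± 0.075 (adjusted p = 0.0893, limma) and 0.40 ± 0.070, and MYC (-0.42 ± 0.093) and the CDK inhibitor gene CDKN1C (-0.40 ± 0.089) lowest. Of 30 G2/M genes 26 were above 0, with a median of 0.07 and 0 passing, of which 6 had an unadjusted p under 0.05, and the spindle checkpoint kinase gene TTK was highest at 0.32 ± 0.070.

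The comparison of TET2WT with Mock asked how the members differed with the wild-type construct, as the mean over both concentrations. The clamp loader genes RFC3 and RFC5 fell in TET2WT. RFC3 read 8.63 and 8.37 in TET2WT at high and normal glucose, against 9.34 and 9.13 in Mock, while TET2M read 9.19 and 9.12. Both TET2WT arrays lay below the other 4, and the difference from Mock was -0.74 ± 0.094 (adjusted p = 0.0159, limma), or 0.601 of the Mock level. RFC5 read 7.58 and 7.52 in TET2WT, against 8.08 and 8.0 in Mock, with 7.87 and 7.69 in TET2M, and differed from Mock by -0.49 ± 0.089 (adjusted p = 0.0430, limma). These 2 genes were the members that passed, lower, as did 2.2% of all genes, and 0 members passed higher, as did 2.01% of all genes. Unadjusted p was under 0.05 in limma for 9 members, all lower, compared with 11.4% of all genes lower and 8.78% higher. The 40 had a median of -0.152 with 35 below 0, compared with a median of -0.01 over all genes, of which 47.1% lay above 0. The members' median was -0.09 without the TET2WT array at normal glucose and -0.205 without the one at high glucose. Among the markers, MITF differed between TET2WT and Mock by -0.60 (adjusted p = 0.0434, limma) and KRT14 by -2.40 (adjusted p = 0.000442, limma), both lower in TET2WT. The other 5 melanocyte markers were above 0. Of the markers of other cells KRT14 was the 1 below 0, and the other 4 were above it, by at most 0.25. The summed level of the 6 melanocyte markers was 10.16 and 10.38 in TET2WT, against 10.17 and 10.24 in Mock, and that of the 5 markers of other cells 6.12 and 5.81 in TET2WT, against 7.25 and 6.97 in Mock, and their part in the members' differences was not tested. In 15 members both TET2WT arrays were below both Mock arrays, as in 23.8% of all genes, and in 1 they were above, as in 19.7%. The RFC3 call remained with no low-value filter, with the mean of its probe sets, with either scaling and without the glucose term, whereas the RFC5 call was lost with the mean of its probe sets (-0.37, adjusted p = 0.0714, limma) and without the glucose term (adjusted p = 0.0781, limma). With any 1 array left out neither passed, and the RFC3 difference lay between -0.80 and -0.68. Those fits kept 1 residual degree of freedom, and why the calls were lost was not tested.

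RFC3 lies on chromosome 13, where the 257 genes tested had a median difference between TET2WT and Mock of -0.315, against medians between -0.055 and 0.025 for the other autosomes. Of those 257 genes 56 passed lower and 20 had a lower difference than RFC3. RFC5 lies on chromosome 12. The second RFC3 probe set read 7.20 and 6.90 in TET2WT, against 7.99 and 7.67 in Mock, and the remaining one, close to the low-value level, 3.25 and 2.95 in TET2WT, against 3.29 and 3.26 in Mock. The other RFC5 probe sets gave -0.22 and -0.39. In the brighter of them TET2WT, at 7.45 and 7.29, overlapped TET2M, at 7.25 and 7.40. The remaining loader subunits differed by -0.33 ± 0.086 for RFC4, -0.17 ± 0.097 for RFC2 and -0.18 ± 0.10 for RFC1, the largest subunit, and did not pass.

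**Figure D4:**
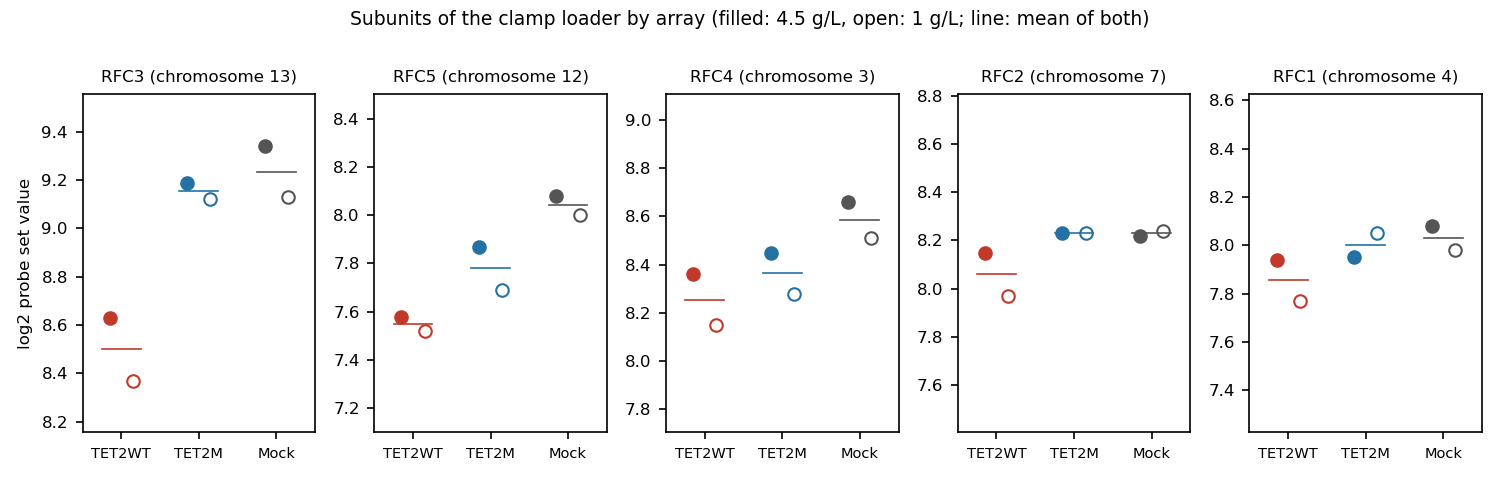
Log2 probe set value (y axis, each panel spanning 1.4 log2 units) of the 5 subunit genes of replication factor C on the 6 arrays, by line, with 4.5 g/L filled, 1 g/L open and a line at the mean of both. RFC3 in TET2WT, at 8.63 and 8.37, lies below the 4 other arrays, which read 9.12 or more, and RFC5 in TET2WT lies at 7.58 and 7.52, below 7.69 and above on the others.

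Outside the loader, GINS3 (-0.47 ± 0.093, adjusted p = 0.0530), DBF4 (-0.48 ± 0.10, adjusted p = 0.0648) and POLE2 (-0.44 ± 0.12, adjusted p = 0.113) had the next largest differences between TET2WT and Mock and did not pass in limma. POLE2 read 7.09 and 6.67 in TET2WT, against 7.37 and 7.26 in Mock, at high and normal glucose. With an intensity trend in limma's variance DBF4, PCNA, GINS3, RFC4 and POLE2 passed too, lower, where 6.04% of all genes did. The members' median was -0.08 at high glucose and -0.215 at normal glucose, with 32 and 34 of the 40 below 0. E2F1 had the highest difference, 0.26 ± 0.14, with 6.19 and 5.80 in TET2WT, against 5.69 and 5.79 in Mock, so that the groups were apart by 0.50 at high and 0.01 at normal glucose. Its other probe set gave -0.18, on the opposite side of 0, and the mean of its probe sets 0.04. Of the 35 further replication genes 29 were below 0 with a median of -0.2 and 0 passed, DNA2 being lowest at -0.45 ± 0.091 (adjusted p = 0.0554, limma), and 13 had an unadjusted p under 0.05 on the lower side. Among the G1/S regulators CDKN1C, a CDK inhibitor gene, rose in TET2WT, with 7.51 and 7.77 in TET2WT, against 6.38 and 6.73 in Mock (1.09 ± 0.11, adjusted p = 0.00794, limma). RB1 (-0.49 ± 0.12) and the E2F partner gene TFDP1 (-0.35 ± 0.099), both on chromosome 13, did not pass.

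**Figure D5:**
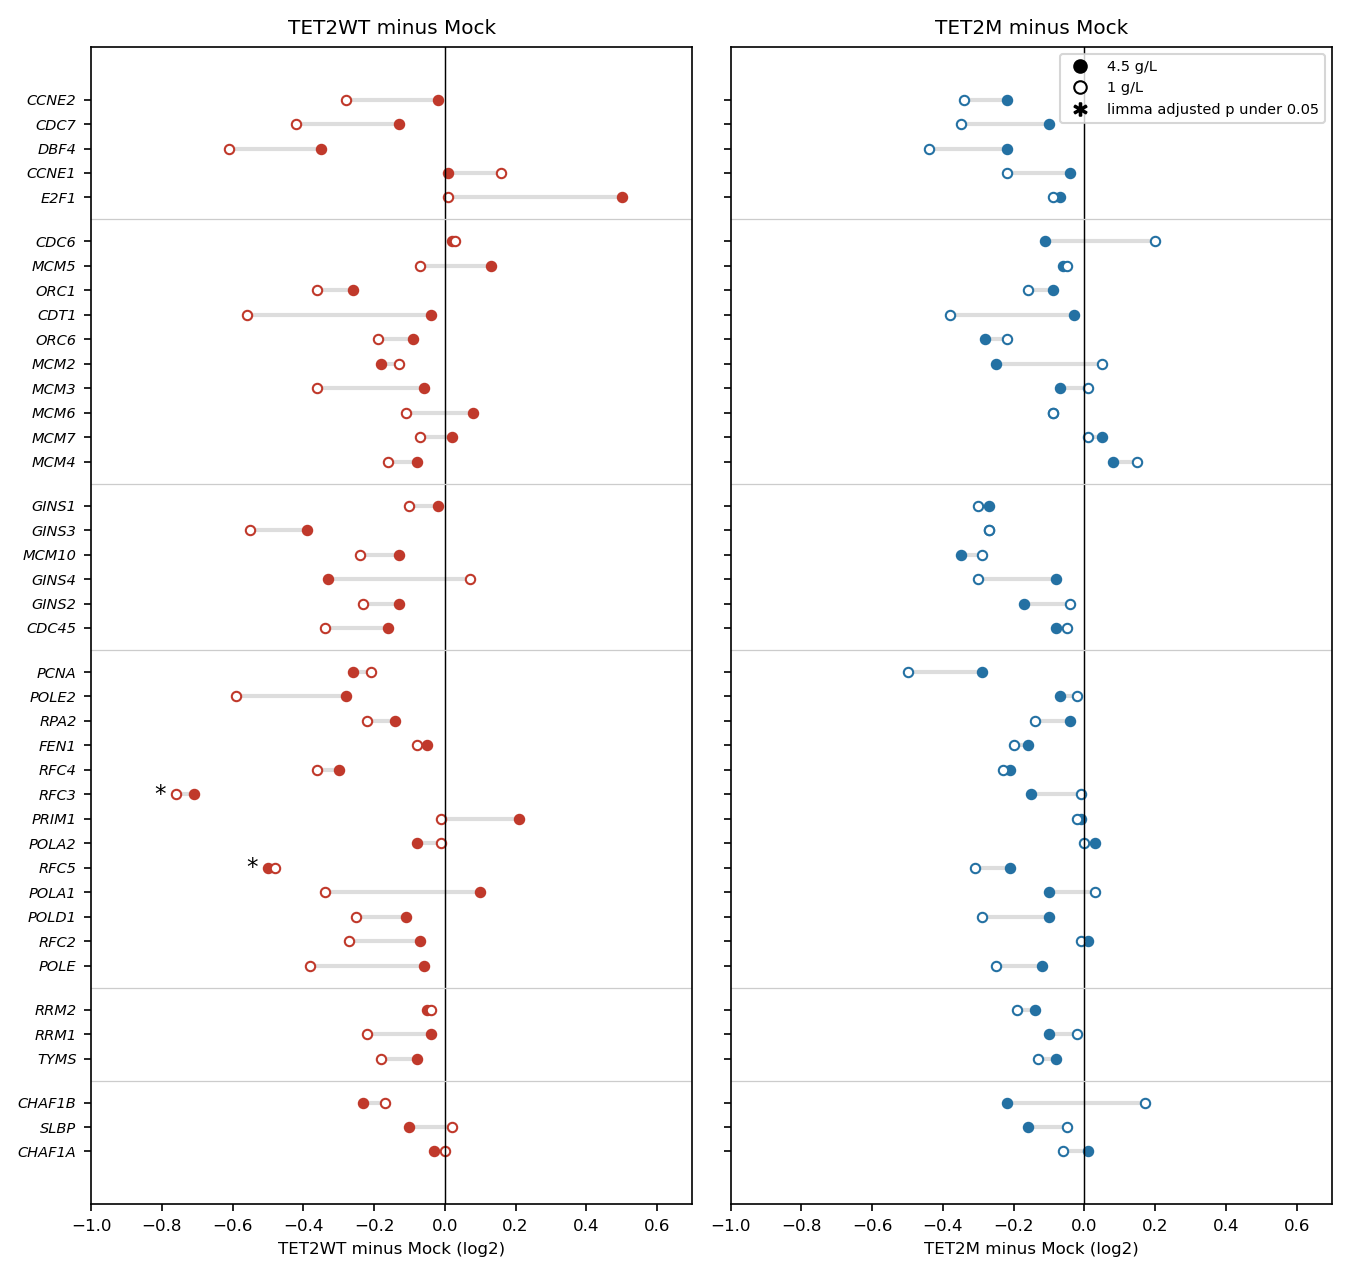
Difference from Mock (x axes, log2) of the 40 genes in TET2WT (left) and TET2M (right) at 4.5 g/L (filled) and 1 g/L (open), grouped by role, with a star at genes that passed in limma. The stars stand at RFC3 and RFC5 in TET2WT, and 35 of the 40 mean differences are below 0 in each panel.

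In TET2M against Mock the members had a median of -0.105, with 35 below 0 and 4 above, compared with a median of -0.02 and 43.9% above 0 over all genes. This comparison uses the same Mock arrays as the one before it. Of the 40 genes 0 passed in limma, as did 0.0693% of all genes lower and 0.0277% higher, and 9 had an unadjusted p under 0.05, all lower, where 6.18% of all genes were lower and 3.34% higher. In 13 members both TET2M arrays were below both Mock arrays (20.3% of all genes). PCNA had the lowest difference, -0.40 ± 0.10 (adjusted p = 0.375, limma), with 10.69 and 10.25 in TET2M, against 10.98 and 10.75 in Mock. With an intensity trend it was the 1 member that passed (adjusted p = 0.00916, limma), where 0.776% of all genes passed lower. DBF4 (-0.33 ± 0.10), MCM10 (-0.32 ± 0.092), GINS1 (-0.29 ± 0.087), CCNE2 (-0.28 ± 0.10) and GINS3 (-0.27 ± 0.093) followed, of which CCNE2 was at -0.178 with the mean of its probe sets. PCNA and GINS1 lie on the short arm of chromosome 20, whose 143 genes tested had a median of -0.215 between TET2M and Mock, with 115 below 0, and of 0.005 between TET2WT and Mock. The genes of the long arm had a median of -0.122 between TET2M and Mock. GINS1 read 8.68 and 8.33 in TET2WT, against 8.70 and 8.43 in Mock, and PCNA 10.72 and 10.54 in TET2WT, against 10.98 and 10.75 in Mock. Without PCNA, GINS1 and RFC3 the median of the other 37 members was -0.105 between TET2M and Mock and -0.15 between TET2WT and Mock.

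Set against TET2M, the TET2WT arrays gave a members' median of -0.0525, with 24 below 0 and 16 above, where 49.8% of all genes were above. The arrays of both lines are those already compared with Mock, so this is no separate observation. RFC3 fell in TET2WT here as well, by 0.66 on the log2 scale (-0.66 ± 0.094, adjusted p = 0.0249, limma), and was the 1 member that passed lower, as 1.43% of all genes did, while 0 passed higher, as 1.86% of all genes did. Unadjusted limma p was under 0.05 for 4 members lower and 1 higher, compared with 8.12% and 9.52% of all genes. Its call was lost without the glucose term (adjusted p = 0.0648, limma) and with any 1 array left out, where it lay between -0.74 and -0.57. POLE2 (-0.39 ± 0.12), E2F1 (0.34 ± 0.14), MCM4 (-0.24 ± 0.091), RFC5 (-0.23 ± 0.089) and GINS1 (0.23 ± 0.087) were the next in size and did not pass. With the mean of a gene's probe sets E2F1 was at 0.22 and MCM4 at -0.085. The other RFC5 probe sets gave 0.05 and -0.39 between TET2WT and TET2M. With an intensity trend MCM4 and POLE2 passed too, lower, where 3.85% of all genes did. Of the G1/S regulators CDKN1C rose most in TET2WT relative to TET2M, with 7.51 and 7.77 in TET2WT, against 6.32 and 6.90 in TET2M (1.03 ± 0.11, adjusted p = 0.00912, limma). CCND1, the cyclin that starts RB phosphorylation in G1, rose in TET2WT relative to TET2M, with 9.88 and 9.70 in TET2WT, against 9.35 and 9.12 in TET2M (0.56 ± 0.094, adjusted p = 0.0401, limma).

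The last comparison asked whether the glucose difference in TET2WT departed from the mean of those in TET2M and Mock. It uses the same arrays as the glucose comparison. The members' median was 0.133, with 32 of 40 above 0, compared with 0.02 and 53% over all genes. Of the members 0 passed in limma, as did 0% of all genes, and 2 had an unadjusted p under 0.05, both higher, where 5.07% of all genes were higher and 4.12% lower. These were POLA1, the catalytic subunit of polymerase alpha, at 0.51 ± 0.12 and E2F1 at 0.48 ± 0.098 (adjusted p = 0.531 for both, limma). POLA1 read 7.22 in TET2WT, 7.02 in TET2M and 7.12 in Mock at high glucose, against 6.81 in TET2WT, 7.18 in TET2M and 7.15 in Mock at normal glucose. The TET2WT array at normal glucose was the lowest of the 6. CDT1 (0.35 ± 0.21), MCM3 (0.34 ± 0.11) and POLE2 (0.34 ± 0.10) came next, and GINS4 was lowest at -0.51 ± 0.15. With the mean of a gene's probe sets E2F1 was at 0.265, GINS4 at -0.113 and CDT1 at -0.005, so that CDT1 no longer lay above 0, whereas POLA1, MCM3 and POLE2 have 1 probe set each.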

How the data were processed

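The deposited log2 values, 1 per probe set and array, were made by the authors with Affymetrix software (Expression Console), per the submitters' processing notes. How probe sets were summarised and background handled is not stated there, and log2 was taken from their range. Sorted values of any pair of arrays lay within 0.12 of each other, as after a normalization across arrays. The number of arrays limits the precision. Probe sets with several gene symbols or none and control probe sets were left out. Symbols were updated by gene ID for 41043 of 41097 single-gene probe sets. Probe sets whose mean lay below the 40th percentile (2.64) were dropped, and the highest-mean probe set stood for each gene.

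limma 3.58.1 in R 4.3.3 (lmFit, eBayes) was fitted to all genes with a term for line and one for glucose (2 residual degrees of freedom, prior 3.97), and again with a glucose term for TET2WT alone (1 residual degree of freedom, prior 1.72). All tests were two-sided with Benjamini-Hochberg adjustment. Differences within a line had no test. Members, lists and motifs were chosen with earlier results of these data known. All members were accounted for by role; per-array values were given for the 12 largest glucose differences and for members that passed, the 6 largest differences were named between lines, and up to 4 genes of each other list with the largest differences. Promoter stretches and coordinates are RefSeq's, GRCh38.p14.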

Additional observations from a re-analysis of the deposited data

Results flagged for a closer look

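Some members had glucose differences on opposite sides of 0 in different lines, with at least 0.1 on each side. E2F1 differed by 0.39 in TET2WT, -0.08 in TET2M and -0.10 in Mock, whereas its other probe set gave -0.01 in TET2WT, -0.06 in TET2M and -0.06 in Mock, with no opposite signs. POLA1 differed by 0.41 in TET2WT, -0.16 in TET2M and -0.03 in Mock. POLE differed by 0.18 in TET2WT, -0.01 in TET2M and -0.14 in Mock. Each value rests on 2 arrays. The difference of TET2WT from the mean of TET2M and Mock was tested and did not pass for E2F1, POLA1 (adjusted p = 0.531 for both, limma) or POLE (adjusted p = 0.561, limma), and the difference between TET2M and Mock was not tested.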

How the results depend on the processing

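Reversal was looked for only in the members that passed, RFC3 and RFC5, and neither changed direction under any of the alternatives run. Some of the other members changed sign. For the glucose difference POLE was below 0 in 5 of 17 alternatives, and E2F1, RFC2 and POLA1 in 3 each. For the glucose difference, 1 gene passed in the fit reported, against 2 with no low-value filter, 5 with a filter at the 60th percentile, 5 with the mean of a gene's probe sets, 5 after quantile normalization, 3 after cyclic loess, 573 with an intensity trend and 0 without the line term, without any 1 line or without any 1 array, and 11 members passed with the trend. Members above 0 there numbered 40, 39 after either scaling, 36 to 40 without 1 array and 36 without TET2WT. For TET2WT against Mock, members passing numbered 2 in the fit reported, 4 with the 60th percentile filter, 1 with the mean of probe sets, 7 with the trend, 1 without the glucose term and 0 without TET2M or without any 1 array. Genes passing there numbered 607 in the fit reported, 1527 with the trend, 317 without the glucose term, 16 without TET2M and 0 to 16 without 1 array, and members above 0 numbered 5, 8 after quantile normalization and 9 after cyclic loess. Their median, -0.152, was -0.205 to -0.09 without 1 array. For TET2M against Mock, genes passing numbered 14, 22 with the 60th percentile filter, 25 with the mean of probe sets, 149 with the trend (1 member), 7 without the glucose term and 0 without TET2WT or any 1 array. Members above 0 there numbered 4, 2 with the mean of probe sets, 8 after either scaling and 4 to 13 without 1 array, and their median, -0.105, was -0.0794 after quantile normalization, -0.0784 after cyclic loess and -0.146 to -0.0863 without 1 array. For TET2WT against TET2M, 1 member and 475 genes passed, against 3 and 1248 with the trend, 0 and 267 without the glucose term, and 0 and 0 without Mock or any 1 array, and the members' median, -0.0525, was -0.0987 to 0.0225 without 1 array. With fewer arrays the fit keeps fewer residual degrees of freedom, and the cause of the changes was not tested. For the response particular to TET2WT no array of TET2WT can be left out, and leaving out another leaves a value with no test. The fit reported pairs the high- and normal-glucose arrays of a line through its line term, and the values without that term stand above. The labels carry no replicate numbers for any other pairing.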

Other observations

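Genes that supply nucleotides, beside the ribonucleotide reductase and thymidylate synthase genes, were measured for 21 of 24 listed. Their glucose differences had a median of 0.05, with 13 above 0 and 8 below, and 0 passed in limma, where 1 had an unadjusted p under 0.05. DCK, the deoxycytidine kinase of the salvage pathway, was highest at 0.31 ± 0.085. Between TET2WT and Mock 17 of the 21 were below 0, with a median of -0.135 and 0 passing in limma, where 5 had an unadjusted p under 0.05 on the lower side.

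Of 11 genes of chromatin assembly and maintenance methylation, all 11 had a glucose difference above 0, between 0.05 and 0.56, with a median of 0.12 and 0 passing in limma, where 3 had an unadjusted p under 0.05. The largest was that of HELLS, a chromatin remodeller that acts with maintenance methylation, at 0.56 ± 0.080 (adjusted p = 0.0893, limma). UHRF1, which brings DNMT1 to hemimethylated DNA, differed by 0.34 ± 0.12.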
